A study of Mus musculus with 10 samples.

Results

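The genes described here are the 5 subunits of the transcription factor NF-kB (Rela, Rel, Relb, Nfkb1 and Nfkb2) and 5 of its inhibitors (Nfkbia, Nfkbib, Nfkbie, Nfkbid and Tnfaip3), 10 genes of the 54408 that could be summed from the deposited tables. They were chosen by name from the pathway, with their counts in these same libraries already known and with no threshold on the values. The values of the 10 genes are therefore a description. Which of them passed the threshold of the fit over all genes is stated as part of that description, without p-values, and is no independent test. RNA had been sequenced from P14 CD8 T cells, which carry a transgenic receptor for the gp33 peptide, taken from B16-gp33 tumours, a mouse melanoma line that expresses this peptide. Cells of both groups were labelled C57BL/6 and carried floxed Nfat5 alleles. The 5 WT libraries came from cells without Cre, and the 5 NFAT5 KO libraries from cells with Cre under the Cd4 promoter, which is active from an early stage of T cell development in the thymus and so acts in CD8 T cells too. Cells of both groups had 48 hours of activation in vitro before transfer into mice with tumours, and the sort of CD8 T cells from tumour tissue followed 7 days after transfer. A gate that would separate transferred cells from the hosts' own CD8 T cells is not given in the sources used here. Whether the libraries stem from different mice is not in the labels, so the errors and p-values measure the spread between libraries, part of which may be technical.

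NF-kB dimers are held in the cytoplasm by IkB proteins until a kinase complex marks these for degradation. Antigen receptor and costimulatory signals act in T cells through the canonical arm, in which RelA and c-Rel pair with p50, the product of Nfkb1. Receptors of the TNF receptor family can also use the non-canonical arm, in which the NIK kinase drives processing of the Nfkb2 product to p52, the partner of RelB. Several inhibitors, among them Nfkbia and Tnfaip3, are themselves textbook targets of NF-kB and form its negative feedback.

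The libraries held 22444310 to 32001285 estimated counts. Titles begin with 678 (2 WT and 3 NFAT5 KO libraries) or 679 (3 WT and 2 NFAT5 KO libraries), a prefix whose meaning the labels leave out. Nfat5, which encodes the targeted transcription factor, stood at 15.4 ± 3.81 CPM (estimated counts scaled to a common library total) in WT libraries (SD, n = 5) and at 15 ± 6.58 CPM in the NFAT5 KO group (n = 5), a log2 fold change of -0.04 (SE 0.27). NFAT5 KO 679_2 had 26.7 CPM, against 11.6 to 12.6 CPM in the other NFAT5 KO libraries, and the log2 fold change was -0.37 without it. A count over the whole gene does not separate the floxed part from the rest, so it does not test the genotype labels. All 10 markers of CD8 T cells were found, and they summed to 10293 to 11266 CPM in WT and 11570.2 to 12733 CPM in NFAT5 KO libraries. The 15 macrophage and monocyte markers had a mean log2 CPM of 2.49 ± 0.544 in WT and 0.745 ± 1.05 in NFAT5 KO libraries (two-sided exact permutation p = 0.0159, adjusted p = 0.0635 over 12 marker lists). They summed to 1603 to 2529 CPM in WT and 1128 to 1877 CPM in NFAT5 KO libraries, mostly from Ly6c2 and Ccr2, which T cells also express. Lyz2, a defining macrophage gene, stood at 18.9 to 66.3 CPM in WT and 0.547 to 31.9 CPM in NFAT5 KO libraries. C1qc was listed at 0 in NFAT5 KO 678_5, 678_6 and 679_2. Not all genes of the list were lower in NFAT5 KO libraries. Ccr2 had 48.3 to 119.2 CPM in WT and 87.96 to 191.8 CPM in NFAT5 KO libraries. Itgam had 2.83 to 16.6 CPM in WT and 9.22 to 20.04 CPM in NFAT5 KO libraries. The 7 B cell markers summed to 280.3 to 663 CPM in WT and 231 to 293 CPM in NFAT5 KO libraries, nearly all from Ighm, with Pax5 at 0 throughout. The 12 handling and immediate early genes, which rise quickly when cells are stressed or stimulated, had a mean log2 CPM of 7.43 ± 0.109 in WT and 7.85 ± 0.320 in NFAT5 KO libraries (exact permutation p = 0.0238, adjusted p = 0.0714), and 1 of them, Junb, is also in the list of target genes used further on. In bulk libraries such as these, fewer cells of a type and less RNA per cell cannot be told apart.

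All 10 genes passed the low-count filter, which left 13081 genes, and all 10 had a higher fitted level in NFAT5 KO than in WT cells. The log2 fold changes (NFAT5 KO minus WT, from the edgeR quasi-likelihood fit) ran from 0.23 to 1.01 with a median of 0.61, against a median of 0.02 over all genes tested. The adjusted p was below 0.05 for 6 of the 10, namely Relb, Nfkb1, Nfkb2, Nfkbia, Nfkbid and Tnfaip3, all higher in NFAT5 KO cells. Over all genes tested, 51.8% had a positive log2 fold change, 9.01% passed in either direction and 3.38% passed as higher. The lowest NFAT5 KO library lay above the highest WT library for 3 of the 10 (Rela, Relb and Tnfaip3), as it did for 3.92% of all genes tested. Because the genes were named with this contrast known, nothing is read from these counts. The number past the threshold was 2 when WT 678_2, WT 679_3 or WT 679_5 was left out. It was 5 without NFAT5 KO 678_5, 6 without WT 678_4, and 4 without any other single library. Relb and Tnfaip3 passed in all 10 of these fits, in which 696 to 1276 of all genes tested passed.

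**Figure D1:**
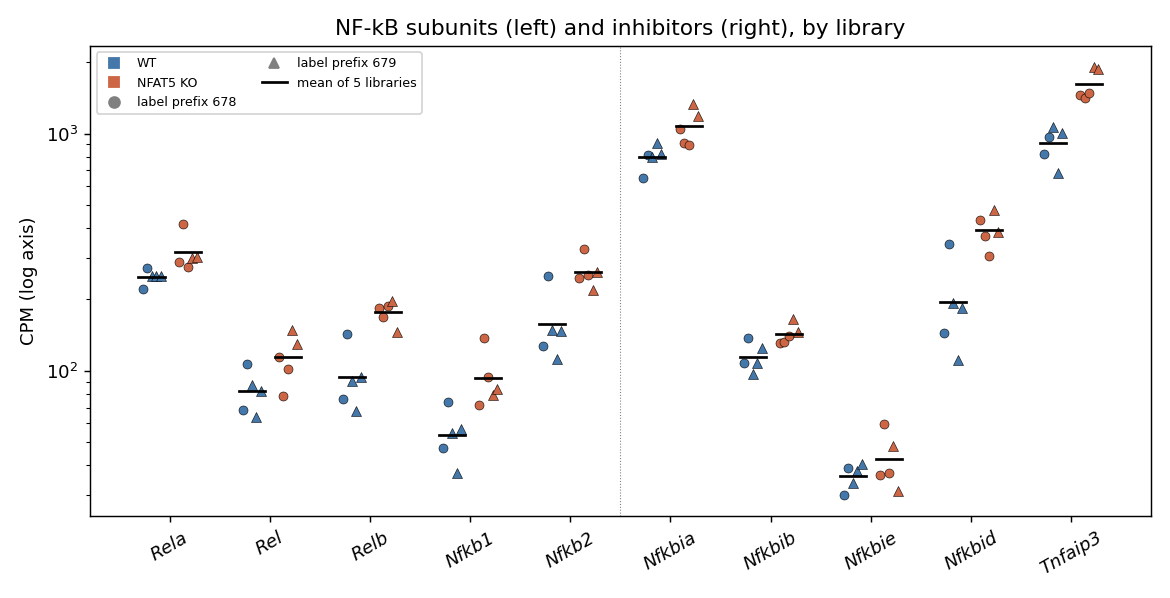
Level of each NF-kB gene in every library, in CPM on a log axis, with subunits on the left and inhibitors on the right. Points are libraries (circles, label prefix 678; triangles, prefix 679; blue, WT; red, NFAT5 KO) and bars are means of 5 libraries. The 2 groups do not overlap for Rela, Relb and Tnfaip3, and overlap for the other 7 genes.

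Sequence just before the start of several of these genes holds matches to the kappaB consensus, the DNA motif that NF-kB dimers bind. Binding to such motifs is the textbook route by which NF-kB acts on its own subunits and inhibitors. Whether NF-kB acts through the stretches shown here was not tested. Sequences are from RefSeq (GRCm38.p6), in windows from 250 bases before to 50 bases after each annotated start. Windows were matched by symbol for 8 of the 10 genes, with 3 windows for Nfkb2 and Nfkbid, 2 for Tnfaip3 and 1 for each of the others. Nfkb1 and Relb had no entry. The consensus was searched on both strands, and a palindromic site can match on both. It was found in 6 of the 8 (Nfkb2, Rel, Nfkbia, Nfkbid, Nfkbie and Tnfaip3) and in 4.51% of all 32851 windows, or 5.14% of the 27025 genes with a window. Each line is written 5′ to 3′ on the gene's own strand, and capitals mark the bases of a match on either strand. The 130 bases up to the start are shown for Nfkbia (chr12:55492648-55492777, minus strand), Nfkbie (chr17:45555570-45555699, plus strand) and Tnfaip3 (chr10:19015411-19015540, minus strand).
Nfkbia: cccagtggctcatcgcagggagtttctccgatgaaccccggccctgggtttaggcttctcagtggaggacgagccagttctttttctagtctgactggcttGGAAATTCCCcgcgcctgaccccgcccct
Nfkbie: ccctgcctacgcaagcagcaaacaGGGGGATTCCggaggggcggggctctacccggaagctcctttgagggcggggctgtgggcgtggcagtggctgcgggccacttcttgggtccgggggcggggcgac
Tnfaip3: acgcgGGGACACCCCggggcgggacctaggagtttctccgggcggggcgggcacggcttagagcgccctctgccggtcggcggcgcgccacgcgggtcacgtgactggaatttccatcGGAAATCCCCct
For the other genes 30 bases around a match are shown, at chr11:23771042-23771071 (minus strand) for Rel, at chr19:46304688-46304717 and chr19:46304716-46304745 (plus strand) for Nfkb2, and at chr7:30422170-30422199 and chr7:30422215-30422244 (plus strand) for Nfkbid.
Rel: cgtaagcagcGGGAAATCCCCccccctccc
Nfkb2, first match: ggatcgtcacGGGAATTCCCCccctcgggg
Nfkb2, second match: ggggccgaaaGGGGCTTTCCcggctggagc
Nfkbid, first match: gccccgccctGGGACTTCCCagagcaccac
Nfkbid, second match: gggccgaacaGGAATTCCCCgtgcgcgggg
The match began 29 bases before the start in Nfkbia, 92 in Rel and 106 in Nfkbie. Tnfaip3 had matches 125 and 12 bases before its start, and Nfkbid had matches 226 and 181 bases before the start of its second window. In Nfkb2 the consensus matched in 4 places, of which those 39 and 11 bases before its first start are shown. No match was found in the windows of Rela and Nfkbib, which says only that these letters are not in those windows. The hexamer TGGAAA, the first 6 bases of the tonicity element that NFAT5 binds, was found on either strand in a window of 5 of the 8 genes (Nfkb2, Nfkbia, Nfkbib, Nfkbid and Tnfaip3) and in 23.9% of all genes with a window. Genes with more windows have more places for a match, and a match is a description of the sequence, not a binding site.

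Relb, which encodes the transcriptional partner of p52 in the non-canonical arm (ENSMUSG00000002983, GRCm38 chromosome 7, 19606217 to 19629438, minus strand), had the largest log2 fold change of the 5 subunits. It stood at 76.2, 144, 90.5, 67.4 and 94.2 CPM in WT 678_2, 678_4, 679_3, 679_4 and 679_5. The NFAT5 KO libraries had 185, 169, 188, 198 and 146 CPM, in the order 678_3, 678_5, 678_6, 679_2, 679_6. Values by library follow these orders from here on. The groups did not overlap, but WT 678_4 came within a few CPM of the lowest NFAT5 KO library, 679_6. The means were 94.4 ± 29.6 and 177 ± 20.1 CPM (SD, n = 5 each), a log2 fold change of 0.91 (SE 0.18), and 1.09 without WT 678_4.

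Nfkb2, which encodes the p100 precursor that is cut to p52 (ENSMUSG00000025225, chromosome 19, 46304320 to 46312385, plus strand), stood at 127, 251, 149, 112 and 148 CPM in the WT libraries. The NFAT5 KO libraries had 247, 328, 254, 219 and 260.2 CPM. WT 678_4 stood far above the other WT libraries and within the NFAT5 KO range, and the other 4 WT libraries lay below every NFAT5 KO library. The log2 fold change was 0.73 (SE 0.19), and 0.95 without WT 678_4. It passed the threshold without WT 678_4 or NFAT5 KO 679_2, and in no other fit with 1 library left out. Psd and a noncoding transcript lie antisense over the gene, and whether the counting used strand is not given in the sources used here.

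Nfkb1 encodes p105 and its shorter product p50, the partner of both RelA and c-Rel (ENSMUSG00000028163, chromosome 3, 135584655 to 135691547, minus strand). Its WT libraries had 47.1, 73.5, 54.4, 37.0 and 57.0 CPM. Its NFAT5 KO libraries had 71.9, 138, 94.2, 78.7 and 83.8 CPM, so that NFAT5 KO 678_5 stood highest and NFAT5 KO 678_3 fell just below WT 678_4. The log2 fold change was 0.79 (SE 0.20), and 0.59 without NFAT5 KO 678_5. It passed the threshold in 4 of the 10 fits with 1 library left out (without NFAT5 KO 678_3, 679_2 or 679_6, or WT 678_4).

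Rela, which encodes the p65 subunit of the canonical dimer (ENSMUSG00000024927, chromosome 19, 5637483 to 5648130, plus strand), varied little among WT libraries, at 220.2, 271, 251, 249.8 and 250.4 CPM. In NFAT5 KO libraries it stood at 288, 415, 275, 298 and 302 CPM. The groups did not overlap, but the NFAT5 KO library 678_6 lay only a little above WT 678_4, and 678_5 stood far above the other NFAT5 KO libraries. The log2 fold change was 0.34 (SE 0.11), and 0.21 without NFAT5 KO 678_5. In the edgeR fits Rela did not pass the threshold, with all libraries or with any 1 left out. Over all libraries it passed by the DESeq2 Wald test (0.34) but not by limma-voom (0.28).

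Rel encodes c-Rel, the subunit most tied to lymphocytes (ENSMUSG00000020275, chromosome 11, 23736847 to 23770970, minus strand). Its WT libraries had 68.3, 107, 87.3, 63.9 and 82.3 CPM, and its NFAT5 KO libraries had 114, 78.4, 101, 149 and 130.3 CPM. NFAT5 KO 678_5, the library with the highest Rela, Nfkb1 and Nfkb2, had the lowest Rel of its group and lay within the WT range. The log2 fold change of 0.49 (SE 0.18) did not pass the threshold. It was 0.58 and passed the threshold without NFAT5 KO 678_5, and in no other edgeR fit with 1 library left out. Over all libraries Rel passed by limma-voom (0.53) but not by the DESeq2 Wald test (0.48).

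Tnfaip3 encodes A20, a ubiquitin-editing enzyme that shuts down signalling upstream of the IkB kinases (ENSMUSG00000019850, chromosome 10, 19000910 to 19015657, minus strand). It stood at 823, 971, 1071, 681 and 1008 CPM in WT and at 1458, 1407, 1489, 1904 and 1877 CPM in NFAT5 KO libraries. The lowest NFAT5 KO library, 678_5, lay well above the highest WT library, 679_3, and both NFAT5 KO libraries of prefix 679 lay above the 3 of prefix 678. The means were 911 ± 158 and 1627 ± 243 CPM (SD, n = 5 each), a log2 fold change of 0.84 (SE 0.13), which ran from 0.74 to 0.88 when 1 library was left out.

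Nfkbia encodes IkB-alpha, the inhibitor that is degraded and resynthesised most quickly after stimulation (ENSMUSG00000021025, chromosome 12, 55489410 to 55492647, minus strand). Its WT libraries had 652, 814, 797, 916 and 819.8 CPM, and its NFAT5 KO libraries had 1042, 914, 894, 1330.5 and 1188 CPM. The groups overlapped because WT 679_4 stood just above NFAT5 KO 678_5 and 678_6. The means were 799.7 ± 94.6 and 1074 ± 185 CPM, a log2 fold change of 0.43 (SE 0.12). It passed the threshold without NFAT5 KO 678_5, NFAT5 KO 678_6 or WT 679_4, and in none of the other 7 fits with 1 library left out, the lowest of which gave 0.32 without NFAT5 KO 679_2.

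Nfkbid encodes IkB-NS, a nuclear IkB protein that binds p50 and modulates its targets in place of holding dimers in the cytoplasm (ENSMUSG00000036931, chromosome 7, 30421732 to 30428746, plus strand). It had the largest log2 fold change of the 10 genes and a wide spread among WT libraries, at 144, 344, 194, 111 and 185 CPM. The NFAT5 KO libraries had 430.4, 368, 306, 476 and 384 CPM. Only WT 678_4 reached the NFAT5 KO range, above NFAT5 KO 678_6. The means were 195 ± 89.1 and 393 ± 64.4 CPM, a log2 fold change of 1.01 (SE 0.25), and 1.29 without WT 678_4. It did not pass the threshold without WT 678_2, WT 679_3, WT 679_5 or NFAT5 KO 679_2.

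Nfkbib and Nfkbie, which encode the cytoplasmic inhibitors IkB-beta and IkB-epsilon, differed least among the inhibitors. Nfkbib (ENSMUSG00000030595, chromosome 7, 28758251 to 28767512, minus strand) stood at 108, 137, 97.3, 108 and 124 CPM in WT and at 131, 132, 141, 165 and 145 CPM in NFAT5 KO libraries. WT 678_4 was the single WT library within the NFAT5 KO range. The log2 fold change was 0.32 (SE 0.11), and of the 10 edgeR fits with 1 library left out it passed the threshold in the one without WT 678_4 (0.37). It also passed by the DESeq2 Wald test (0.31) and limma-voom (0.34) over all libraries. Sirt2, an abundant gene here, lies antisense over Nfkbib, so part of these counts may belong to it if strand was not used.

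Nfkbie (ENSMUSG00000023947, chromosome 17, 45555703 to 45563169, plus strand) had 30, 38.8, 33.6, 38.0 and 40.4 CPM in WT and 36.3, 59.9, 37.2, 48.2 and 31.1 CPM in NFAT5 KO libraries. NFAT5 KO 678_3, 678_6 and 679_6 lay inside the WT range, and the higher mean came from NFAT5 KO 678_5 and 679_2. The log2 fold change of 0.23 (SE 0.17) did not pass the threshold and was 0.06 without NFAT5 KO 678_5.

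A few libraries set the ends of the WT group and the high end of the NFAT5 KO group. WT 678_4 was the highest WT library for 7 of the 10 genes, WT 679_4 was the lowest for 6 and WT 678_2 for 3. Among NFAT5 KO libraries, 679_2 was the highest for 6 genes (Rel, Relb, Nfkbia, Nfkbib, Nfkbid and Tnfaip3) and 678_5 for the other 4 (Nfkb1, Nfkb2, Rela and Nfkbie), while the lowest value was spread over all 5 libraries, which held 1 to 3 genes each. As a mean over the 10 genes, WT 678_4 stood 0.39 above the WT mean on the log2 CPM scale, and WT 679_4 and WT 678_2 stood -0.26 and -0.22 from it, while the NFAT5 KO libraries stood between -0.11 and 0.14 from their own mean. WT 678_4 also had the lowest macrophage marker mean of the WT libraries (1.60 in log2 CPM, against 2.39 to 2.99 in the other 4). NFAT5 KO 678_5 had the highest mean of the handling and immediate early genes (8.35, against 7.49 to 7.91 in the other 4 NFAT5 KO libraries). The lowest of that group, 7.49, was that of NFAT5 KO 679_2, the highest library for 6 of the 10 genes. The part of these markers in the differences between genotypes was not tested apart from the fits with a covariate given further on.

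With each genotype's own mean subtracted, the genes also differed in how closely they followed one another over the 10 libraries. Pearson's r between a gene and the mean of the other 9 was 0.885 for Nfkbid, 0.819 for Relb and 0.740 for Nfkb2. It was 0.294 for Nfkbie and 0.129 for Nfkbia, the gene that followed the others least. These 10 points share their libraries and so their depth and cell makeup, and the r values are given as a description.

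Levels per transcript length were compared in TPM (abundance scaled by transcript length and library total), which, unlike CPM, can be set side by side between genes. The 2 feedback inhibitors stood at the top in both genotypes. Nfkbia had 1089 ± 123 TPM in WT and 1480.3 ± 275 TPM in NFAT5 KO libraries, and Tnfaip3 had 241 ± 51.6 and 428 ± 58.8 TPM. Nfkbia lay above Tnfaip3 in all 5 libraries of each genotype with no overlap of the ranges, and the range of Tnfaip3 reached that of the next genes in WT but not in NFAT5 KO libraries. In WT libraries the next levels were those of Rela (156 ± 15.6 TPM), Nfkbib (153 ± 22.9 TPM) and Nfkbid (133 ± 63.2 TPM), whose ranges overlapped and whose order changed from library to library. Nfkb2 (68.3 ± 24.8 TPM) and Relb (62.2 ± 20.3 TPM) came next, again with overlapping ranges, although Nfkb2 was the higher in all 5 WT libraries. Nfkb1 (25.1 ± 6.84 TPM), Nfkbie (18 ± 1.92 TPM) and Rel (11.2 ± 2.68 TPM) were lowest, and of these the ranges of Nfkb1 and Nfkbie overlapped while those of Nfkbie and Rel did not.

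The order in NFAT5 KO libraries differed in the middle. Nfkbid followed Tnfaip3, at 267 ± 46.4 TPM, and lay above Rela (195 ± 45.7 TPM) in 4 of 5 libraries. Rela and Nfkbib (193 ± 24.2 TPM) were not separated, and neither were Relb (118 ± 16.0 TPM) and Nfkb2 (115 ± 24.1 TPM). Nfkb1 (44.2 ± 11.8 TPM), Nfkbie (21.5 ± 7.14 TPM) and Rel (15.7 ± 3.67 TPM) stayed lowest, now with Nfkb1 above the range of Nfkbie.

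The sum of the 5 inhibitors over the sum of the 5 subunits was 5.15 ± 0.667 in WT and 4.99 ± 1.06 in NFAT5 KO libraries on the TPM scale, with overlapping ranges. The inhibitor sum was 1634 ± 184 TPM in WT and 2389.9 ± 393 TPM in NFAT5 KO libraries, and the subunit sum was 323 ± 66.2 and 488 ± 82.7 TPM. Within the subunits, Rela held 49.2% ± 5.86 of the summed TPM in WT and 39.6% ± 2.74 in NFAT5 KO libraries. Relb held 18.9% ± 2.19 and 24.5% ± 3.97. The ratio of Relb to Rela was 0.394 ± 0.0995 in WT (range 0.290 to 0.559) and 0.627 ± 0.138 in NFAT5 KO libraries (range 0.449 to 0.738), so the ranges overlapped. The ratio of Nfkb1 to Nfkb2 was 0.375 ± 0.0473 and 0.380 ± 0.0227. These shares and ratios come from the contrast that the genes were chosen with and carry no test.

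Salmon divides reads among a gene's transcripts, and for some of these genes much of the level was assigned to transcripts that do not encode the full protein. A retained-intron transcript of Nfkbia of 701 bases held 54.3% ± 2.53 of the gene's TPM in WT and 54.6% ± 2.24 in NFAT5 KO libraries, and the protein-coding transcripts held 45.5% over all libraries. A nonsense-mediated decay transcript of Nfkb1 held 33.0% ± 6.36 in WT and 31.3% ± 5.87 in NFAT5 KO libraries, and protein-coding transcripts of Nfkb1 held 46.6% over all libraries. For Rela the protein-coding share was 74.3%, and for Rel and Nfkbib it was 100%. With protein-coding transcripts alone Nfkbia was still the highest of the 10 genes, at 497 ± 56.9 TPM in WT and 671 ± 121 TPM in NFAT5 KO libraries, and the inhibitor sum over the subunit sum was 4.15 ± 0.441 and 4.07 ± 0.814.

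**Figure D2:**
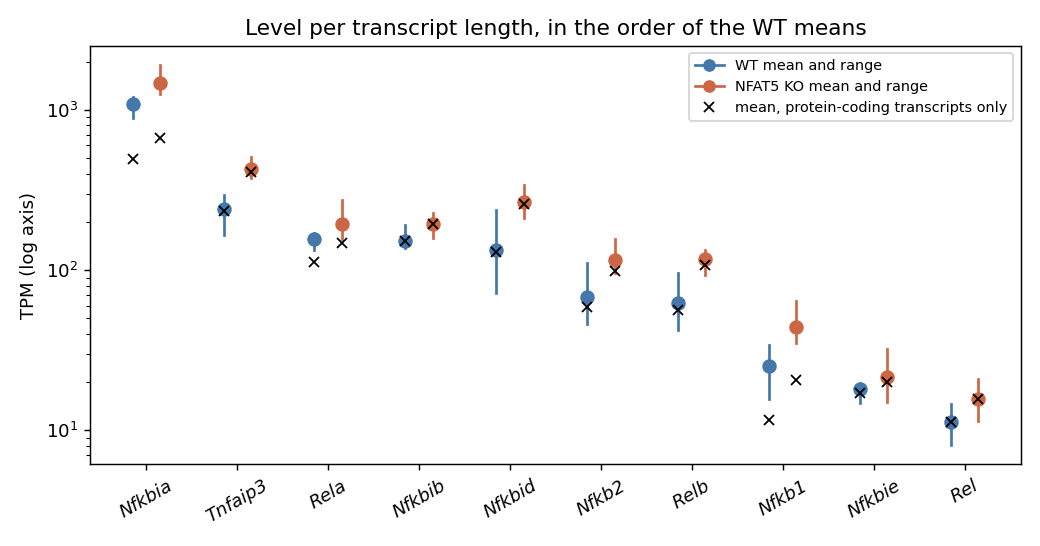
Level of each NF-kB gene per transcript length, in TPM on a log axis, ordered by the WT mean. Circles are means of 5 libraries, lines run from the lowest to the highest library, and crosses are means over protein-coding transcripts alone. Nfkbia stands above all others in both genotypes, and its crosses and those of Nfkb1 lie well below the circles.

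Each label prefix held both genotypes, and all 10 genes had a positive log2 fold change within each. The median was 0.47 in prefix 678 and 0.76 in prefix 679. Within prefix 678 none of the 10 passed the threshold of the edgeR test, and 4 had an unadjusted p below 0.05. Of all 13747 genes tested there, none passed and 1449 had an unadjusted p below 0.05. Within prefix 679, 3 of the 10 passed, and 325 of all 13966 genes tested there. Nfkbid showed the widest gap, with 0.59 (SE 0.35) in prefix 678 and 1.39 (SE 0.24) in prefix 679, followed by Rel with 0.15 (SE 0.24) and 0.84 (SE 0.17). In 1 edgeR fit with an interaction of genotype and prefix, none of the 10 passed the threshold and none had an unadjusted p below 0.05. With the prefix as a block, 6 of the 10 passed, and 976 of all 13081 genes.

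When the macrophage and monocyte marker mean was added to the fit as a covariate, 9 of the 10 log2 fold changes were positive with a median of 0.50, and none of the 10 passed the edgeR threshold (4 had an unadjusted p below 0.05). In that fit 5 of all 13081 genes passed. Tnfaip3 had 0.97 (SE 0.20) and Relb 0.58 (SE 0.23) there, while Nfkbie turned to -0.20 (SE 0.24). With the mean of the handling and immediate early genes as a covariate, 154 of all 13081 genes passed. Of the 10 genes, 2 passed and the median was 0.55. The 2 were Tnfaip3 with 0.92 (SE 0.18) and Nfkbia with 0.65 (SE 0.14). Relb with 0.94 (SE 0.25), Nfkbid with 1.12 (SE 0.33), Nfkb1 with 0.31 (SE 0.21) and Nfkb2 with 0.45 (SE 0.25) no longer passed. The genes that had not passed without a covariate were Rela, Nfkbie, Rel and Nfkbib. Rela had 0.10 (SE 0.12) and Nfkbie 0.01 (SE 0.22), while Rel had 0.80 (SE 0.21) and Nfkbib 0.42 (SE 0.14). Both covariates had different means in the 2 genotypes, and the share of a covariate and that of genotype cannot be fully told apart in these fits.

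**Figure D3:**
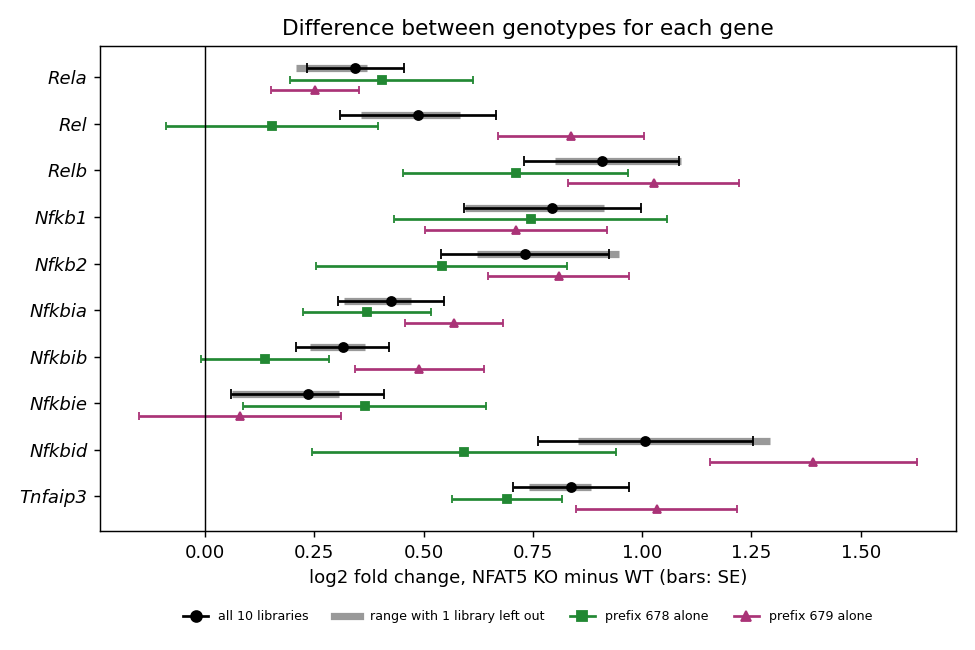
Log2 fold change of each NF-kB gene, NFAT5 KO minus WT, with its SE, over all 10 libraries (black), within label prefix 678 (green) and within prefix 679 (purple). Grey bars give the range when 1 library is left out. Every point lies above 0, from 0.23 for Nfkbie to 1.01 for Nfkbid over all libraries, and Nfkbid and Rel show the widest gaps between the prefixes.

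Other genes of the pathway were taken from 4 lists written from textbook knowledge (84 genes, of which 81 passed the low-count filter). The lists were written with earlier results of these data known, so their counts and p-values are no independent test. Of these 81, 19 rose and 1 fell in NFAT5 KO cells at an adjusted p below 0.05 (edgeR), and 61 did not pass. The median log2 fold change of the 81 was 0.19, against 0.02 over all genes. Of all genes tested, 9.01% were called in either direction and 3.38% as higher. All NFAT5 KO libraries lay above all WT libraries for 3.92% of them. The same shares stand beside the counts and separated groups of each list below. The number of signalling genes called was 13 without WT 678_2 and 14 to 22 without any other single library. It was 0 with the macrophage marker mean as a covariate (15 at an unadjusted p below 0.05) and 3 with the handling gene mean. Of all genes tested, 5 and 154 passed in these fits. The median log2 fold change of the 81 genes was 0.15 and 0.21 in these fits, with 58 and 57 positive, against 61 without a covariate. Over all genes tested, 51.8% were positive without a covariate. As for the 10 genes above, the mean of the macrophage markers was lower and that of the handling genes higher in NFAT5 KO libraries. Neither difference passed (exact permutation test, adjusted p = 0.0635 and 0.0714), and Ccr2 of the macrophage list went the other way. The part of these markers beyond these fits was not tested.

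Among 26 genes of the IkB kinases and their activators, all tested, 3 rose, none fell and the median log2 fold change was 0.15. Traf1, an adaptor of TNF receptor family signalling, stood at 256, 370, 307, 275 and 339 CPM in WT and at 463, 681, 468, 441 and 439.9 CPM in NFAT5 KO libraries. Its groups did not overlap (log2 fold change 0.69, SE 0.14, adjusted p = 0.00796). Birc3, a ubiquitin ligase that restrains NIK, rose from 51.3 ± 4.56 to 77.0 ± 13.2 CPM (0.58, SE 0.13, adjusted p = 0.0121). Map3k14, which encodes NIK itself, rose from 29.4 ± 15.1 to 67.3 ± 17.6 CPM (1.19, SE 0.32, adjusted p = 0.0349), with WT 678_4 above NFAT5 KO 679_2. Map3k14 passed the threshold in 3 of the 10 fits with 1 library left out (without WT 678_4, WT 679_4 or NFAT5 KO 679_2), and its highest adjusted p was 0.0916. Traf1 and Birc3 passed in all 10.

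Of 17 other inhibitors and nuclear IkB proteins, all tested, 6 rose, none fell and the median was 0.32. Nfkbiz, which encodes the nuclear protein IkB-zeta, stood at 136, 126, 143, 119 and 153 CPM in WT and at 299.8, 176, 274, 443 and 382 CPM in NFAT5 KO libraries. All 5 NFAT5 KO libraries lay above the WT range, with 678_5 closest to it (log2 fold change 1.22, SE 0.20, adjusted p = 0.00237). Bcl3, a nuclear IkB protein that acts with p50 and p52 homodimers, rose by 0.85 (SE 0.19, adjusted p = 0.0134). Tnip1, an adaptor that binds A20, rose from 72.1 ± 8.67 to 104 ± 8.70 CPM (0.53, SE 0.11, adjusted p = 0.00721). Tax1bp1, another adaptor of A20, rose by 0.36 (SE 0.09, adjusted p = 0.0296), and N4bp1, a negative regulator of the pathway, by 0.68 (SE 0.19, adjusted p = 0.0409). With 1 library left out, Tax1bp1 passed in 4 of 10 fits (highest adjusted p 0.0947; kept without WT 678_4, WT 679_3, NFAT5 KO 678_3 or NFAT5 KO 679_6) and N4bp1 in 2 (highest adjusted p 0.107; kept without WT 678_4 or WT 679_5). Nfkbiz, Bcl3 and Tnip1 passed in all 10.

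Of 16 receptors and receptor adaptors that feed the pathway, 13 were tested, 3 rose, none fell and the median was 0.16. Cd40, Il1r1 and Ltbr did not pass the low-count filter, with at most 0.954 CPM in any library. Cd28, the main costimulatory receptor of T cells, had 277, 345, 289.6, 294 and 287 CPM in WT and 385, 391, 393, 432 and 397 CPM in NFAT5 KO libraries. The groups did not overlap (log2 fold change 0.42, SE 0.08, adjusted p = 0.0045). Tnfrsf9, which encodes 4-1BB, rose from 1177 ± 345 to 1891 ± 201 CPM (0.68, SE 0.17, adjusted p = 0.0266), and Tnfrsf18, which encodes GITR, from 332 ± 97.1 to 512 ± 56.5 CPM (0.63, SE 0.17, adjusted p = 0.0349). WT 678_4 reached the NFAT5 KO range for both. Tnfrsf9 passed in 4 of the 10 fits with 1 library left out (without WT 678_4, WT 679_4, NFAT5 KO 678_3 or NFAT5 KO 679_2; highest adjusted p 0.0772), and Tnfrsf18 passed in 1 (without WT 678_4; highest adjusted p 0.0940), while Cd28 passed in all 10.

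Of 25 textbook target genes, all tested, 7 rose and 1 fell, with a median of 0.24. Cd69, a surface marker of early activation and tissue retention, had 131, 232, 163, 127 and 179.5 CPM in WT and 272, 357, 568, 492 and 399 CPM in NFAT5 KO libraries. Gadd45b, a stress-response and survival gene, had 101, 209.8, 159, 144 and 131 CPM in WT and 296, 305, 337, 527 and 317 CPM in NFAT5 KO libraries. Neither gene had overlapping groups, and the log2 fold changes were 1.33 (SE 0.21, adjusted p = 0.00184) and 1.26 (SE 0.20, adjusted p = 0.00212). Ltb (lymphotoxin beta) rose from 551 ± 46.1 to 758 ± 56.5 CPM, by 0.46 (SE 0.08, adjusted p = 0.00362). Cflar, which blocks cell death from TNF family receptors, went up by 0.60 (SE 0.11, adjusted p = 0.0047). Icam1, an adhesion molecule, rose by 0.52 (SE 0.10, adjusted p = 0.0083). These 5 genes passed in all 10 fits with 1 library left out. In an edgeR fit with an offset for transcript length, Cflar had 0.37 and did not pass, while Cd69, Gadd45b, Ltb and Icam1 did. Plek, the gene that fell, is named after its value was seen, at -0.33 (SE 0.08, adjusted p = 0.0170).

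**Figure D4:**
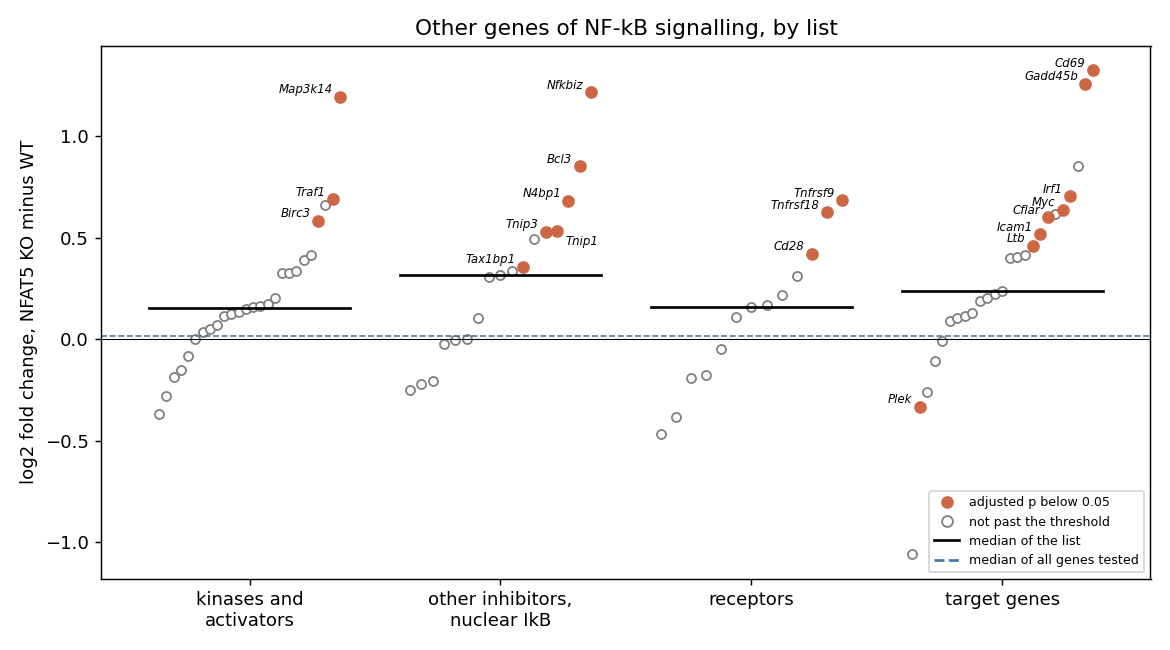
Log2 fold change, NFAT5 KO minus WT, of each tested gene of 4 lists of NF-kB signalling, sorted within its list. Filled points passed an adjusted p of 0.05 (edgeR), black bars are list medians (0.15, 0.32, 0.16 and 0.24 from left to right) and the dashed line is the median of all genes tested. Of the 20 filled points 19 lie above 0, and Plek lies below.

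Over the 10 libraries, with each genotype's own mean subtracted, 8485 genes (those whose log2 CPM averaged 3 or more) were compared with the mean of the 10 NF-kB genes. The 6 most alike were Map3k2 (r = 0.946), Myo9a (r = 0.940), Prkci (r = 0.935), Slamf1 (r = 0.931), Sytl3 (r = 0.929) and Zfp281 (r = 0.928). These r values rest on 10 libraries that share their depth and cell makeup, and they were the highest of all genes compared, so they describe this set alone. The mean of the 10 NF-kB genes lay furthest from its genotype mean in WT 678_4 (0.39), WT 679_4 (-0.26) and WT 678_2 (-0.22). These libraries therefore weigh most in r. The genotypes also differed for some of the 6. Slamf1, which encodes a receptor of the SLAM family, had 133 ± 24.3 CPM in WT cells, 208 ± 21.1 CPM in NFAT5 KO cells and a difference of 0.65 (log2, SE 0.12, adjusted p = 0.0060). Sytl3 rose by 0.61 (SE 0.13, adjusted p = 0.00941), Zfp281 by 0.80 (SE 0.19, adjusted p = 0.0205) and Map3k2 by 0.75 (SE 0.20, adjusted p = 0.0390). Prkci (0.49, SE 0.21, adjusted p = 0.178) and Myo9a (0.31, SE 0.31, adjusted p = 0.595) did not pass. With 1 library left out, Map3k2 passed in 2 of 10 fits and Zfp281 in 7, and Slamf1 and Sytl3 passed in all 10. With the macrophage marker mean as a covariate none of the 4 passed (Slamf1 0.49, Sytl3 0.52, Zfp281 0.48 and Map3k2 0.64, adjusted p from 0.425 to 0.709), nor with the handling gene mean (0.54, 0.52, 0.61 and 0.72, adjusted p from 0.146 to 0.281).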

How the data were processed

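Each library has 1 deposited Salmon table of 140919 transcripts whose columns, per the file headers, hold estimated counts, TPM and effective lengths. The deposited estimated counts need not be whole and were not normalized, and TPM values were used only for levels per length. The submitters' processing notes name Salmon 0.14.1 as tool, with GRCm38.p6 and mm10 as builds; strand and trimming settings are not given in what was used here. Effective lengths as deposited entered 1 alternative, weighted by TPM.

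Transcripts were matched by identifier to GENCODE M21 (99.38%; the rest held 0.191% to 0.228% of counts), and each gene's estimated counts were added up and rounded. Genes were filtered with filterByExpr, scaled with TMM and tested with the robust quasi-likelihood test of edgeR 4.0.16 (R 4.3.3), with Benjamini-Hochberg adjustment over 13081 genes at 0.05. SE is the absolute log2 fold change over the square root of F. The biological coefficient of variation was 35.7%, and depth sets only the counting error. No 2 libraries of 1 genotype agreed within sampling noise (lowest chi-square per degree of freedom 27.1).

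The 10 genes, the signalling and marker lists and the tests were chosen with earlier results of these data known. Named signalling genes were up to 5 per list with the smallest p-values past the threshold, and the 6 genes most alike have a mean log2 CPM of at least 3. A prior count of 2 entered log2 CPM values. Means of 12 marker lists were compared by exact permutation of the labels, two-sided, over 252 arrangements: CD8 T cell, macrophage and monocyte, dendritic cell, neutrophil, B cell, NK cell, CD4 T and Treg, melanoma, fibroblast, endothelial, red cell, and handling and immediate early genes. Adjusted p was 0.0635 for the CD8 T, macrophage and B cell lists, 0.0714 for the handling list and 0.175 to 0.690 for the other 8. Alternatives were DESeq2 1.42.0 size factors or Wald test, library size alone, 2 other filters, a length offset, the label prefix as a block or each prefix alone, 3 marker covariates, limma-voom (limma 3.58.1) and leaving out each library.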

Additional observations from a re-analysis of the deposited data

Results flagged for a closer look

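In 9 of 66 groups of 5 libraries (33 genes in each genotype), the highest or lowest library stood apart from the other 4. Chance gives such a distance in about 1 of 20 independent groups. The 66 groups reuse the same libraries for every gene and are not independent, so nothing is read from their number. Nfkb2 stood at 251 CPM in WT 678_4, against 112 to 149 CPM in the other WT libraries. The same library stood apart for Cd28 (345 CPM, against 277 to 294 CPM) and Icam1 (161 CPM, against 113.5 to 126 CPM). WT 679_4 was low for Tnip1, at 57.0 CPM against 72.8 to 77.8 CPM. NFAT5 KO 678_5 was high for Rela, at 415 CPM against 275 to 302 CPM, and for Traf1, at 681 CPM against 439.9 to 468 CPM. NFAT5 KO 679_2 was high for Nfat5, at 26.7 CPM against 11.6 to 12.6 CPM, for Gadd45b, at 527 CPM against 296 to 337 CPM, and for Cd28, at 432 CPM against 385 to 397 CPM.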

How the results depend on the processing

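Of 230 values of the 10 genes over the alternatives, 172 kept their direction and side of the threshold, 51 lost the threshold, 6 gained it and 1 reversed (Nfkbie, -0.203 with the macrophage covariate). The number of the 10 past the threshold was 0 in prefix 678 alone, 3 in prefix 679 alone, 0 with the macrophage, 2 with the melanoma and 2 with the handling covariate, and 2 to 6 with 1 library left out. It was 8 by both the DESeq2 Wald test and limma-voom, and 5 to 6 with the other normalizations, filters, the length offset and the prefix as a block. Of the signalling genes, 0, 4, 0, 9 and 3 passed in the same 5 settings (19 at an unadjusted p below 0.05 in prefix 678 alone), and 13 to 22 with 1 library left out. Of all genes, 0 (1449 unadjusted), 325, 5, 576 and 154 passed in the same 5 settings, and 696 to 1276 with 1 library left out. The number was 1893 by the Wald test and 1545 by limma-voom. It was 976 to 1265 with the other normalizations, filters, the length offset and the prefix as a block. Without the low-count filter 22914 genes were tested, and with the stricter filter 9357. Fits within a prefix hold fewer libraries; otherwise the cause was not tested. For Nfat5 the log2 fold change was 0.068 with the length offset, 0.468 in prefix 679 alone, 0.271 with the handling covariate and -0.368 to 0.025 with 1 library left out; Myo9a was -0.148 in prefix 678 alone. Of the named signalling genes, 258 of 368 values kept their side and 110 lost it. Leaving out 1 library, an alternative chosen after seeing the data for the marker means, gave differences in mean log2 CPM of 0.172 to 0.219 for CD8 T cells, -0.915 to -0.663 for B cells, -0.394 to 0.062 for CD4 T cells and -0.131 to 0.041 for endothelial cells. Without WT 678_2 the CD8 T and B cell lists passed (exact permutation test, adjusted p = 0.0476 each). The red cell (-1.649 to -0.215), melanoma (-0.895 to -0.368) and neutrophil (-0.384 to -0.119) differences moved within wide ranges and did not pass. In the order of the 10 levels over all libraries, 2 genes kept their place in CPM, 8 with medians and 4 with protein-coding transcripts alone, the last also added after seeing the data. No paired analysis was possible because no replicate number is shared between the genotypes within a prefix.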
